A study of Mus musculus with 26 samples.

Results

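The genes described here are 60 named genes of mouse chromosome 14, nearly all of which lie close to Lgals3, the gene of the sugar-binding lectin galectin-3. They were found by symbol in a table of read counts for 15249 genes. A row was present for 59 of the 60, since no row was named Chmp4a, and all 59 entered the tests. Of these, 58 start between 45 and 56 Mb of the chromosome (build GRCm38, positions from GENCODE M21), where Lgals3 itself starts at 47367751. Nid2, which encodes a basement membrane protein, starts 27.6 Mb away at 19751265 and lies outside that window. The window holds another 59 measured genes, and 484 genes of the table lie on chromosome 14.

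The tissue was the left ventricle of mice on the C57BL6 background. The 26 libraries fall into 4 groups by their labels: 6 wild type (wt), 7 overexpressing the kinase Mst-1 (MstTg), 8 with knockout of galectin-3 (Gal3Ko) and 5 with both changes (Mst1Gal3). Mst-1, encoded by Stk4, is the kinase that starts the Hippo pathway, and its overexpression serves as a model of dilated cardiomyopathy. The promoter of the transgene, the deleted part of Lgals3, and the age and sex of the mice are stated in none of the sources used here. The labels do not say whether the replicates of a group are separate mice, so p-values measure only the spread between these libraries.

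A gene knocked out in embryonic stem cells of one mouse strain and then bred into another strain is inherited together with the stretch of chromosome around it. Genes on that stretch, often called passengers, can carry alleles of the stem cell strain in every knockout animal and in none of the controls. The 2 comparisons that bear on the neighbours of Lgals3 are Gal3Ko against wt and Mst1Gal3 against MstTg. They share no library. The stem cell strain and the number of crosses are stated in none of the sources used here. Whether a difference below comes from a neighbouring allele or from the loss of galectin-3 was not tested.

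Library totals were 18580405 to 32663735 counts, so that 1 count equals at most 0.0538 CPM (counts scaled to a common library total). All 8 cardiomyocyte markers were measured. They summed to 91860 to 118400 CPM in wt, 109400 to 132700 in Gal3Ko, 108200 to 127700 in MstTg and 116800 to 138500 in Mst1Gal3. The marker Myh6 itself lies in the window, 7.60 Mb above Lgals3. Its log2 fold change was 0.32 ± 0.08 (SE) in Gal3Ko against wt (adjusted p = 0.0955 by edgeR's quasi-likelihood test). In Mst1Gal3 against MstTg it was 0.41 ± 0.09 (adjusted p = 0.00298). DESeq2 called Myh6 higher in both. Atrial genes (Sln, Myl4 and Myl7) together exceeded 30 CPM in 6 libraries: 1 of wt, 1 of MstTg, 3 of Gal3Ko and 1 of Mst1Gal3. Their part in the results was not tested beyond leaving these libraries out. The 6 fibroblast markers summed to 614 to 811 CPM in wt and 620 to 729 in Gal3Ko. They summed to 2049 to 2526 CPM in MstTg and 1799 to 2144 in Mst1Gal3. In bulk tissue, fewer cells of a type and less RNA per cell cannot be told apart. The 6 endothelial markers summed to 687 to 851 CPM in wt and Gal3Ko and to 493 to 582 in the Mst-1 groups. The 5 smooth muscle and pericyte markers summed to 636 to 843 CPM in wt, 658 to 807 in Gal3Ko, 390 to 591 in MstTg and 497 to 635 in Mst1Gal3. The 9 macrophage markers summed to 220 to 417 CPM and the 5 red blood cell genes to 9.06 to 383 CPM over all libraries. Of 5 lymphocyte and 3 adipocyte markers, 1 and 0 had a row.

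Lgals3 was measured first as a check of the labels. Its lowest, median and highest levels were 0.878, 1.60 and 2.42 CPM in wt and 1.47, 2.16 and 2.74 CPM in Gal3Ko. The gene-level count of Lgals3 did not set Gal3Ko below wt (log2 fold change 0.41 ± 0.17, SE, adjusted p = 0.619 by edgeR's quasi-likelihood test). The groups below are therefore named by their labels. In MstTg its level was 50.9, 55.1 and 60.0 CPM, and the 5 Mst1Gal3 libraries held 2.54, 3.58, 4.13, 3.88 and 5.43 CPM. Lgals3 was thus lower in every Mst1Gal3 library than in any MstTg library (log2 fold change -3.81 ± 0.13, adjusted p = 8.13e-19). Stk4 was 22.4 to 26.1 CPM in wt and 846 to 1066 CPM in MstTg.

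In Gal3Ko against wt, 10 of the 59 members passed the test (adjusted p under 0.05 over all genes), 3 higher and 7 lower, where 0.354% of all 15249 genes did (0.177% in either direction). In Mst1Gal3 against MstTg, 16 passed, 9 higher and 7 lower, against 4.89% of all genes (2.54% higher and 2.35% lower). The members were chosen with earlier results of these data known, and whether that raised their share was not tested. Of the 59 other genes of the window, 10.2% and 20.3% passed. All 10 members of the first comparison passed in the second as well, in the same direction. They were Samd4, Tep1 and Ccnb1ip1 (higher) and Ddhd1, Tmem260, Ang, Rnase4, Prmt5, Psmb5 and Ppp1r3e (lower). Without Ccnb1ip1, which has a row only through its counts in the knockout groups, 9 members passed in both. Over all genes, 30 (0.197%) passed in both in the same direction. The members' median log2 fold change was 0.00 in the first comparison and 0.03 in the second, beside 0.00 and 0.02 over all genes. Their median absolute change was 0.10 and 0.13, beside 0.07 and 0.10 over all genes. The CPM ranges of the groups did not overlap for 10 members in the first comparison (0.289% of all genes) and for 12 in the second (3.31%). Without the 6 libraries with atrial genes, 8 and 17 members passed. Scaled to library totals, the split in Gal3Ko against wt was 1 higher and 7 lower.

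**Figure D1:**
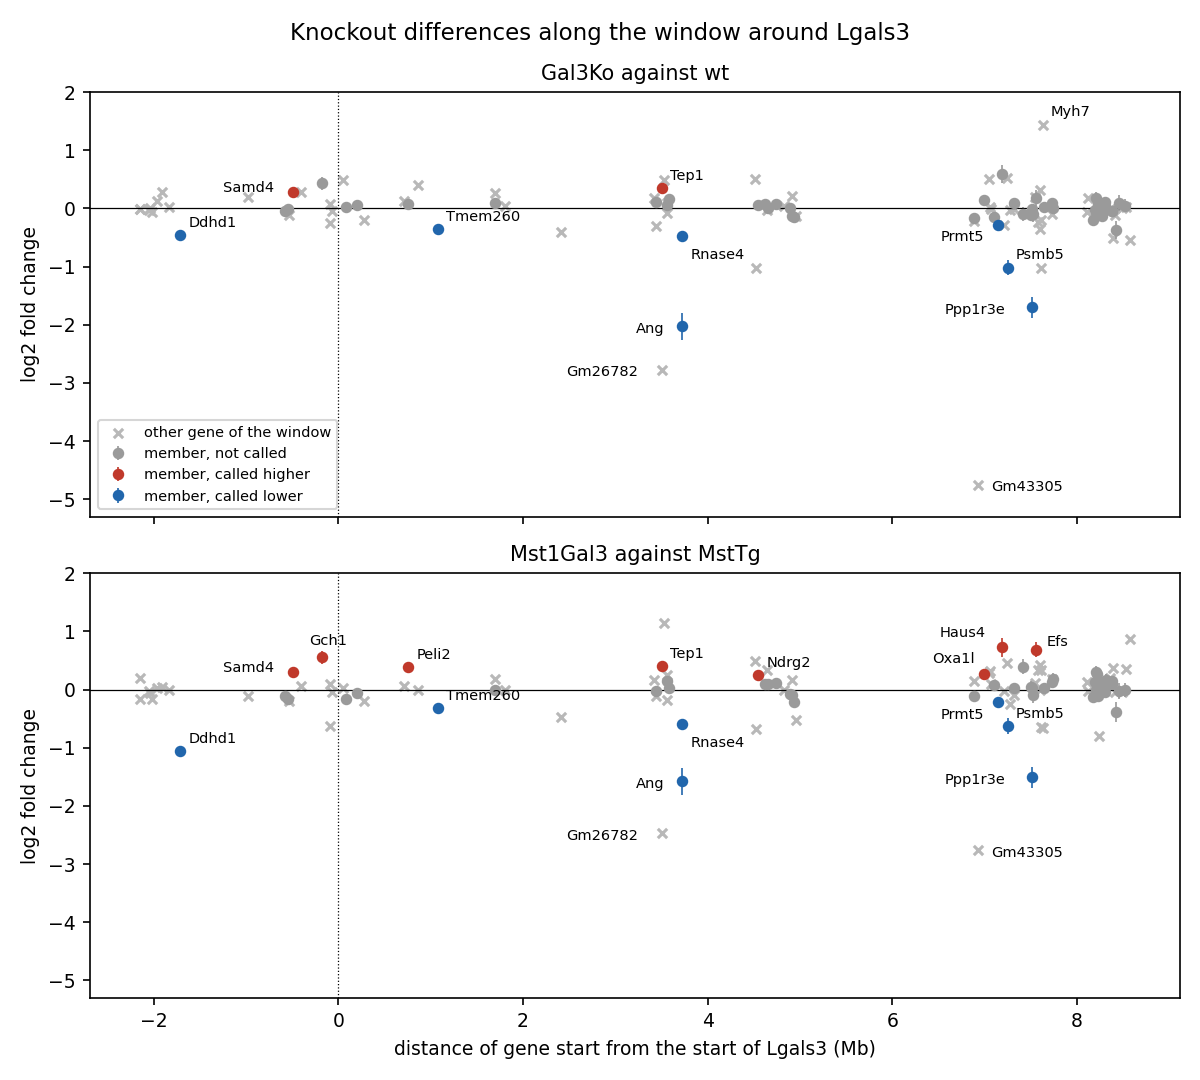
Log2 fold change (vertical axis) of the members (circles, whiskers are SE) and of the other genes of the window (crosses) against the distance of each gene's start from the start of Lgals3 in Mb, for Gal3Ko against wt (top) and Mst1Gal3 against MstTg (bottom). Members called lower (blue) and higher (red) lie on both sides of Lgals3, between uncalled neighbours. Ccnb1ip1, with 0 counts in both control groups, and Nid2, outside the window, are not drawn.

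The secreted ribonucleases Ang and Rnase4 fell in both knockout comparisons. Ang encodes angiogenin, a ribonuclease that promotes blood vessel growth and cuts tRNA, and Rnase4 encodes a related enzyme that prefers uridine. In GENCODE M21 the genes start side by side on the plus strand, Rnase4 at 51091077 and Ang at 51091150, and share 219 exon bases, so that reads there cannot be given to one of them. Members of the angiogenin family also have near-identical copies, and how the counting treated reads with several matches is not given in the sources used here. RefSeq gives the pair a common first start, and the 250 bases before it are shown because both genes moved together. The sequence is that of the GRCm38.p6 reference, plus strand, at chr14:51090827-51091076, and capitals mark a CCAAT box.

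Ang and Rnase4: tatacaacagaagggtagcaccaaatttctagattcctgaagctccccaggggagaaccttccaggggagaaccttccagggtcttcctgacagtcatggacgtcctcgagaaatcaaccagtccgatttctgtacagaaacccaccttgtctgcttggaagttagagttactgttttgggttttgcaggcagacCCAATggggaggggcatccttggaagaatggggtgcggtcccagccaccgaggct

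The CCAAT letters begin 55 bases before the start and were the only match there to the 5 motifs searched on both strands. These were the TATA box (TATAAA), the CCAAT box, the GC box (GGGCGG), and the cores of the cyclic AMP (TGACG) and antioxidant (TGACNNNGC) response elements. Of 32817 RefSeq promoters of the same length, 33.8% hold CCAAT. Reference letters do not show what the chromosome of the knockout mice holds.

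Ang counts were low. Its lowest, median and highest levels were 1.25, 1.96 and 2.53 CPM in wt (27 to 56 counts) and 0.181, 0.427 and 0.964 CPM in Gal3Ko (4 to 19 counts). Every Gal3Ko library lay below every wt library, and Ang was 4.08-fold lower (log2 fold change -2.03 ± 0.23, adjusted p = 1.19e-06, edgeR). With Mst-1 overexpressed, Ang stood at 1.82, 2.25 and 2.55 CPM in MstTg and at 0.911, 0.412, 0.644, 0.801 and 0.899 CPM in the 5 Mst1Gal3 libraries. The groups did not overlap here either (-1.58 ± 0.23, adjusted p = 3.54e-05).

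Rnase4 was 27.0, 27.7 and 39.1 CPM in wt and 18.1, 21.1 and 24.4 CPM in Gal3Ko. The Gal3Ko libraries were all below the wt libraries, by less than for Ang (log2 fold change -0.48 ± 0.08, adjusted p = 0.000858). In MstTg Rnase4 reached 39.7, 45.3 and 47.6 CPM, and in Mst1Gal3 28.6, 29.9, 29.7, 25.9 and 32.9 CPM. It fell in this comparison as well, again with no overlap (-0.60 ± 0.08, adjusted p = 2.48e-05). The difference of Rnase4 between the Mst-1 groups and their controls went the other way: it rose in MstTg against wt by 0.59 ± 0.08 on the log2 scale.

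**Figure D2:**
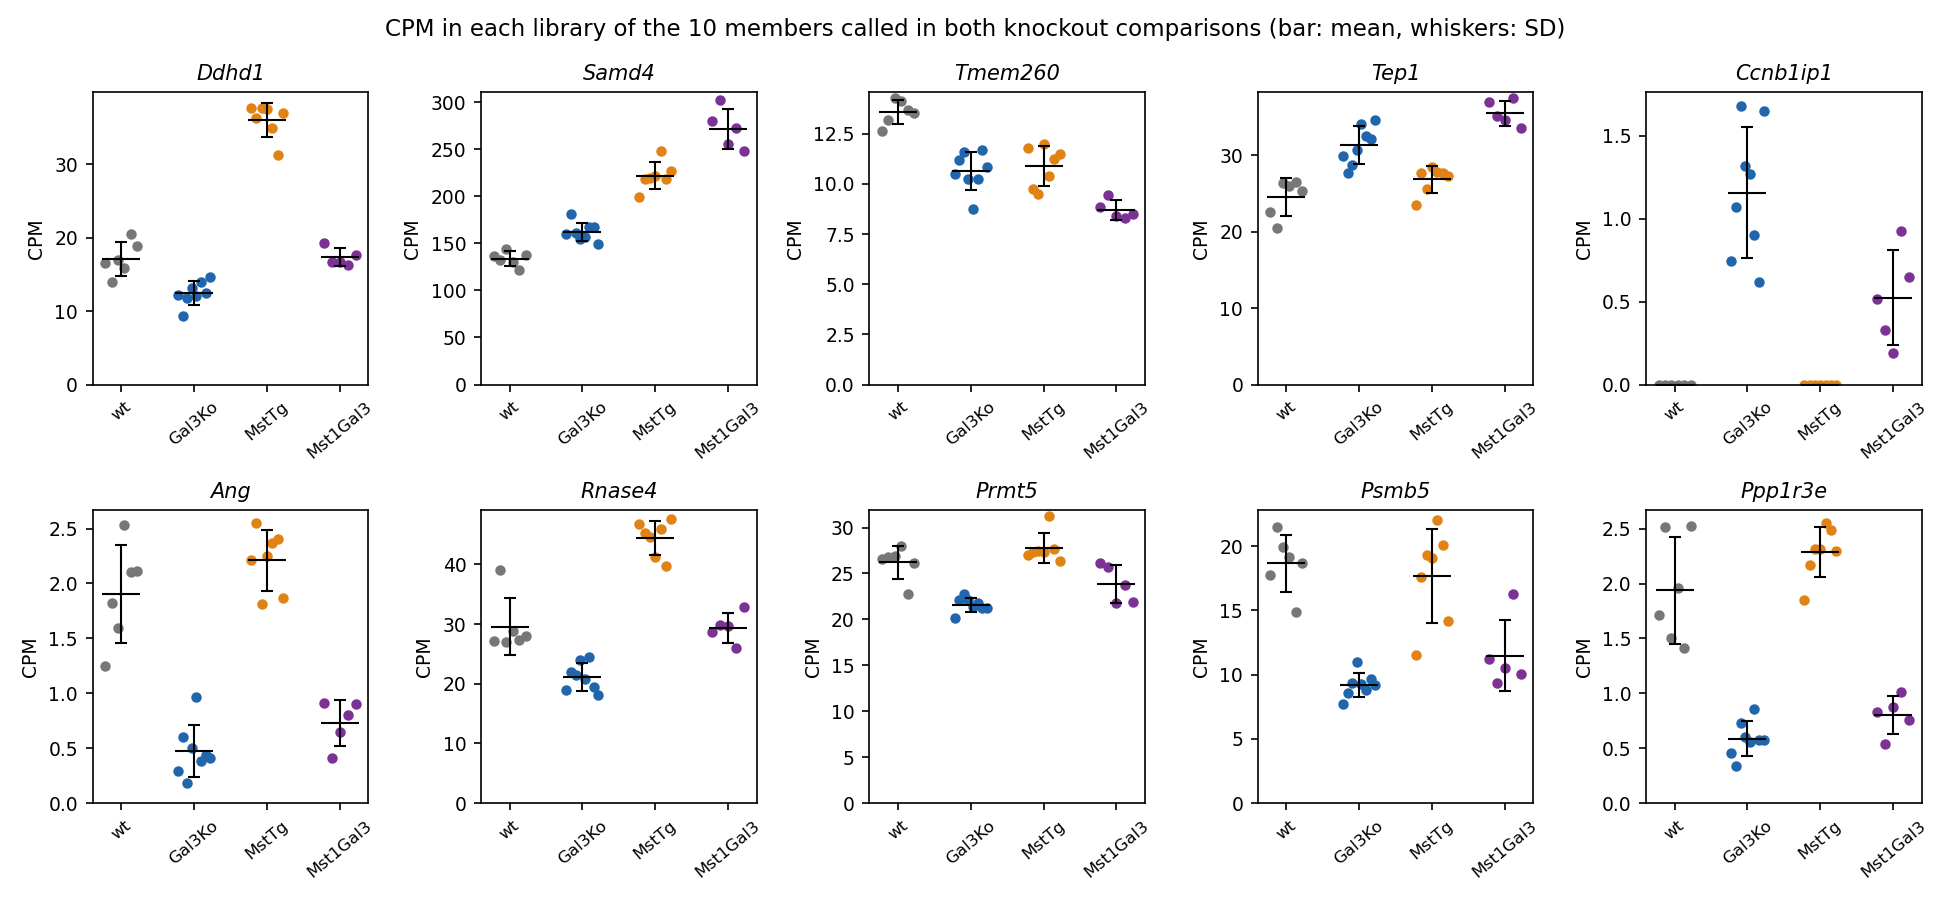
CPM (vertical axis, from 0) of the 10 members called in both knockout comparisons, in each library of wt, Gal3Ko, MstTg and Mst1Gal3 (points, with the mean as a bar and the SD as whiskers). Ccnb1ip1 stays at 0 in all 13 libraries of wt and MstTg, and Ang, Rnase4 and Ppp1r3e have no library of a knockout group above its control group.

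The metabolic and mitochondrial members numbered 11 with a row. 2 of them fell in Gal3Ko against wt, and in Mst1Gal3 against MstTg 2 fell and 2 rose. Ppp1r3e encodes a subunit that brings protein phosphatase 1 to glycogen, where the phosphatase promotes glycogen synthesis. It lies at 54872669 to 54877550 on the minus strand. Its lowest, median and highest levels were 1.42, 1.83 and 2.52 CPM in wt and 0.334, 0.576 and 0.856 CPM in Gal3Ko (31 to 67 and 5 to 20 counts). The groups stood apart, 3.25-fold (log2 fold change -1.70 ± 0.18, adjusted p = 3.73e-07, edgeR). Ppp1r3e was 1.85, 2.32 and 2.55 CPM in MstTg and 0.832, 0.535, 0.871, 1.01 and 0.755 CPM in Mst1Gal3. Both knockout groups thus held less Ppp1r3e than any of their control libraries (-1.51 ± 0.19 in the second comparison, adjusted p = 3.10e-06).

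The other glycogen-targeting subunits of protein phosphatase 1 served as a list of the same function. Of 6 listed genes 5 were measured. By edgeR 0 passed in either comparison, likewise by DESeq2 and limma-voom, and 1 and 0 had an unadjusted p under 0.05. Their median log2 change was 0.12 and 0.02, against 0.00 and 0.02 over all genes.

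Ddhd1 encodes a phospholipase that acts on phosphatidic acid and bears on mitochondrial shape. It is the member farthest below Lgals3 in the window, with its start 1.71 Mb away, at 45588467 to 45658143 on the minus strand. The 250 bases before its RefSeq start are shown because Ddhd1 alone among the members passed the interaction test described below. They lie at chr14:45658144-45658393 of GRCm38.p6, minus strand, and capitals mark 4 GC boxes (GGGCGG, or CCGCCC for the other strand).

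Ddhd1: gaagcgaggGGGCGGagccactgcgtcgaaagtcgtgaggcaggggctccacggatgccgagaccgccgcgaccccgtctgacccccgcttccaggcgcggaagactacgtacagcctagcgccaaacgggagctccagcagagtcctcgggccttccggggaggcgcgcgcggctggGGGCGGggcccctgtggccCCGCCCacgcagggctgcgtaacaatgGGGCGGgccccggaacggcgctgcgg

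The GC box letters occur in 32.7% of the RefSeq promoters and in 6 of the 14 called members that have one. In wt Ddhd1 was 13.9, 16.8 and 20.5 CPM (lowest, median, highest) and in Gal3Ko 9.28, 12.3 and 14.7 CPM. The 2 groups overlapped in part, and Ddhd1 fell by 0.46 ± 0.08 on the log2 scale (adjusted p = 0.00247, edgeR). In MstTg it stood at 31.2, 37.0 and 37.6 CPM, and in Mst1Gal3 at 19.3, 16.7, 16.7, 16.3 and 17.6 CPM. Here the groups were far apart (log2 fold change -1.06 ± 0.09, adjusted p = 4.38e-10), and the Mst1Gal3 level of Ddhd1 was within the range of wt.

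The difference between the comparisons was itself tested as an interaction, that is the Mst1Gal3 change minus the Gal3Ko change. Ddhd1 was the 1 member of 59 that passed (-0.60 ± 0.12, adjusted p = 0.0121, edgeR), against 0.656% of all genes. Another 10 members had an unadjusted p under 0.05 and did not pass. With Ddhd1 these were 11 of 59 members, beside 1857 of all 15249 genes at an unadjusted p under 0.05. The same term is the Mst-1 response of Ddhd1 in the knockout minus that outside it: Ddhd1 rose by 1.07 ± 0.08 on the log2 scale in MstTg against wt and by 0.47 ± 0.08 in Mst1Gal3 against Gal3Ko.

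Gch1, which encodes the first enzyme of tetrahydrobiopterin synthesis, starts 0.178 Mb below Lgals3 and is the nearest member on that side. Its levels were 3.10, 4.36 and 5.21 CPM in wt and 5.43, 5.72 and 6.34 CPM in Gal3Ko. No wt library reached a Gal3Ko library, yet Gch1 did not pass (log2 fold change 0.43 ± 0.11, adjusted p = 0.0955). It passed without wt replicate 5 (adjusted p = 0.0351) and with DESeq2 (0.0345). In MstTg Gch1 was 3.48, 4.01 and 5.33 CPM and in Mst1Gal3 5.75, 7.08, 5.26, 7.76 and 6.58 CPM, a rise of 0.55 ± 0.11 with groups that overlapped at their edges (adjusted p = 0.00247).

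Oxa1l, which encodes an insertase of the inner mitochondrial membrane, was 28.6, 33.0 and 38.9 CPM in MstTg and 41.2, 40.9, 39.6, 42.7 and 36.1 CPM in Mst1Gal3. It rose by 0.27 ± 0.06 (adjusted p = 0.00860), with 1 Mst1Gal3 library inside the MstTg range, and lost the call when scaled to library totals (adjusted p = 0.113). In Gal3Ko against wt the change of Oxa1l was 0.14 ± 0.06 (adjusted p = 0.619).

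The proteasome and ubiquitin members numbered 8. Psmb5 alone passed in Gal3Ko against wt, and Psmb5 and Peli2 passed in Mst1Gal3 against MstTg. Psmb5 encodes the subunit of the 20S proteasome that carries its chymotrypsin-like activity. It lies at 54614119 to 54618022 on the minus strand, 7.25 Mb above Lgals3. The 250 bases before its RefSeq start are shown because Psmb5 fell in Gal3Ko where the other proteasome genes below did not pass. They are chr14:54617996-54618245 of GRCm38.p6, minus strand, and capitals mark 9 letters that match the cores of both the cyclic AMP (TGACG) and the antioxidant (TGACNNNGC) response elements.

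Psmb5: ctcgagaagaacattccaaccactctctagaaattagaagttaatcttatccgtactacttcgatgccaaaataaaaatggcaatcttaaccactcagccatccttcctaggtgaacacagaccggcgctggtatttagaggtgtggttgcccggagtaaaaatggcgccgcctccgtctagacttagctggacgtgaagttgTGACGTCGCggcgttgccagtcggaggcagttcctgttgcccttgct

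Of the RefSeq promoters, 17.7% hold TGACG and 10.2% hold TGACNNNGC. Psmb5 was 14.9, 18.9 and 21.5 CPM in wt (lowest, median, highest) and 7.71, 9.22 and 11 CPM in Gal3Ko. All Gal3Ko libraries lay below the lowest wt library, 2.03-fold on average (log2 fold change -1.02 ± 0.12, adjusted p = 1.09e-05, edgeR). In MstTg the spread of Psmb5 was wider, at 11.5, 19.1 and 22.1 CPM, and Mst1Gal3 held 11.2, 9.35, 10.5, 16.3 and 10.1 CPM. The groups overlapped, and the fall was -0.63 ± 0.13 (adjusted p = 0.00423). The interaction of Psmb5 did not pass (0.39 ± 0.18, adjusted p = 0.380).

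A list of 40 other proteasome genes, all measured, was set beside Psmb5. Besides subunits it holds the regulators Psme3, Psme4 and Psmf1 and the assembly factor Pomp. Its gene Psmc6 lies in the same window as the members. In Gal3Ko against wt 0 passed by edgeR, DESeq2 or limma-voom, with 1 at an unadjusted p under 0.05 and a median log2 change of -0.04. In Mst1Gal3 against MstTg 2 of the 40 passed, both lower, and the median was 0.03. They were the immunoproteasome subunits Psmb8 (-0.70 ± 0.12, adjusted p = 0.000407) and Psmb9 (-0.45 ± 0.13, adjusted p = 0.0412). The Psmb9 call was lost without MstTg replicate 1, 2, 4, 5 or 6 or Mst1Gal3 replicate 2, 3 or 5, and without the libraries with atrial genes (-0.36, adjusted p = 0.168). Psme1 and Psme2, members that encode the proteasome activator also known as PA28, did not pass in either knockout comparison.

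Peli2 encodes a ubiquitin ligase of Toll-like receptor signalling. It was 10.2, 12.4 and 13.4 CPM in MstTg and 16.01, 15.9, 15.9, 15.2 and 15.4 CPM in Mst1Gal3. Peli2 was higher in each Mst1Gal3 library than in any MstTg library (0.39 ± 0.07, adjusted p = 0.00106). In wt and Gal3Ko it was 17.2, 17.6 and 20.01 CPM and 15.7, 19.4 and 20.9 CPM, ranges that overlapped (0.08 ± 0.07, adjusted p = 0.924). The difference between these comparisons did not pass (interaction 0.30 ± 0.10, adjusted p = 0.166). Peli2 shares 869 exon bases on the same strand with the pseudogene Gm6498, which has its own row, and reads there cannot be assigned.

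Among 5 members that act on DNA, telomeres or recombination, Ccnb1ip1 and Tep1 rose in both knockout comparisons and the other 3 passed in neither. Ccnb1ip1 encodes HEI10, a ubiquitin ligase needed for meiotic crossovers. It had 0 counts in all 6 wt and all 7 MstTg libraries. In Gal3Ko it had 14 to 40 counts in each of the 8 libraries (0.619, 1.17 and 1.68 CPM as lowest, median and highest). The 5 Mst1Gal3 libraries held 0.515, 0.330, 0.189, 0.927 and 0.647 CPM (5 to 22 counts). With 3 counts over the control group as the limit that a count of 0 allows, Ccnb1ip1 was at least 50.4-fold higher in Gal3Ko than in wt. It was at least 32.4-fold higher in Mst1Gal3 than in MstTg. The adjusted p by edgeR was 4.13e-06 and 2.75e-05. DESeq2 gave no adjusted p for the second, and the gene was not tested there when only those groups were fitted. The deposited table has no gene with a mean below 10 counts. Ccnb1ip1 reaches that mean only through its counts in the knockout groups. Its presence among the members with a row thus already depended on those groups, and its calls are no separate support.

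Ccnb1ip1 shares 233 exon bases on the same strand with Rpph1, the RNA of ribonuclease P, which held 18178 to 77749 counts per library and did not pass in either comparison. The annotated copies Rprl2 and Rprl3 on chromosomes 3 and 8 showed the same split as Ccnb1ip1. Rprl3 had at most 2 counts in any wt library and 3 in any MstTg library. Each Gal3Ko library had 667 to 1828 counts of it and each Mst1Gal3 library 660 to 2369. Rprl2 and Rprl3 likewise have a row only through the knockout groups. Rpph1, Rprl2 and Rprl3 were looked at after the values of Ccnb1ip1 had been seen. Whether reads of Rpph1 enter the count of Ccnb1ip1 was not tested.

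Tep1 encodes a protein of the telomerase and vault particles. Its levels were 20.5, 25.7 and 26.4 CPM in wt and 27.6, 31.4 and 34.6 CPM in Gal3Ko. All Gal3Ko libraries were higher (log2 fold change 0.35 ± 0.06, adjusted p = 0.00244, edgeR). Tep1 did not pass when scaled to library totals (0.29, adjusted p = 0.119) or without the libraries with atrial genes, where the estimate was 0.32 (adjusted p = 0.0633). In MstTg Tep1 was 23.4, 27.6 and 28.4 CPM and in Mst1Gal3 36.9, 35.1, 34.5, 37.4 and 33.5 CPM, again without overlap (0.40 ± 0.07, adjusted p = 0.000155). The antisense gene Gm26782 shares 144 exon bases with Tep1 and moved the other way. It was lower in Gal3Ko (-2.78 ± 0.11, adjusted p = 2.80e-17) and in Mst1Gal3 (-2.47 ± 0.13, adjusted p = 3.61e-15). The libraries were directional per the labels, but the strand setting of the counting is not given, so reads of the shared bases cannot be assigned.

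Of 9 members in RNA processing and ribosome assembly, Samd4 rose and Prmt5 fell in both comparisons. Samd4 encodes an RNA-binding repressor of translation, and its start lies 0.485 Mb below Lgals3. It was 122, 135 and 144 CPM in wt and 150, 161 and 181 CPM in Gal3Ko. The groups were separate (log2 fold change 0.28 ± 0.05, adjusted p = 0.00681, edgeR), though not past the threshold when scaled to library totals (adjusted p = 0.0891). With Mst-1 overexpressed, Samd4 was 199, 220 and 248 CPM in MstTg and 280, 302, 255, 273 and 248 CPM in Mst1Gal3. The groups again did not overlap, and the rise was 0.29 ± 0.06 (adjusted p = 0.00138).

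Prmt5 encodes the arginine methyltransferase that modifies Sm proteins and histones. In wt it was 22.8, 26.6 and 28.0 CPM and in Gal3Ko 20.2, 21.6 and 22.7 CPM. The lowest wt library stood just above the highest of Gal3Ko (-0.28 ± 0.05, adjusted p = 0.00700). In MstTg Prmt5 was 26.3, 27.3 and 31.3 CPM and in Mst1Gal3 26.2, 25.7, 21.7, 23.7 and 21.9 CPM. These groups also stood just apart (-0.22 ± 0.06, adjusted p = 0.0199). The second call was lost without Mst1Gal3 replicate 3 (adjusted p = 0.0675) or 5 (0.0678) and without the libraries with atrial genes (-0.16, adjusted p = 0.102).

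Of 10 membrane, trafficking and transport members with a row, Tmem260 alone passed, and it fell in both comparisons. It encodes a glycosyltransferase that adds mannose to receptor domains. Its lowest, median and highest levels were 12.7, 13.6 and 14.3 CPM in wt and 8.77, 10.7 and 11.7 CPM in Gal3Ko. All Gal3Ko values were lower (-0.35 ± 0.07, adjusted p = 0.00540, edgeR), and without the libraries with atrial genes the estimate of -0.30 did not pass (adjusted p = 0.157). In MstTg Tmem260 was 9.50, 11.2 and 11.97 CPM and in Mst1Gal3 8.84, 9.47, 8.40, 8.30 and 8.49 CPM. These groups did not overlap (-0.32 ± 0.07, adjusted p = 0.00617). A transcript of the annotation with no row in the table, Gm49519, shares 3911 exon bases with Tmem260 on the same strand.

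The 6 members of the cytoskeleton, matrix and signalling group had 0 calls in Gal3Ko against wt by edgeR or limma-voom, 1 by DESeq2 and 1 at an unadjusted p under 0.05, and 3 rose in Mst1Gal3 against MstTg. Efs encodes an adaptor that binds Src family kinases. It was 2.89, 3.82 and 4.60 CPM in MstTg and 5.63, 5.81, 6.06, 7.38 and 6.26 CPM in Mst1Gal3. All Mst1Gal3 libraries were higher (0.68 ± 0.13, adjusted p = 0.000824, edgeR). Efs was 1.70, 2.31 and 2.99 CPM in wt and 1.94, 2.67 and 3.09 CPM in Gal3Ko, which overlapped. The interaction of Efs did not pass (0.51 ± 0.19, adjusted p = 0.232).

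Haus4 encodes a subunit of augmin, the complex that branches spindle microtubules. It was 1.25, 1.59 and 2.34 CPM in MstTg and 3.29, 2.76, 2.50, 3.33 and 2.23 CPM in Mst1Gal3, which overlapped in 1 library (0.72 ± 0.16, adjusted p = 0.00628). In Gal3Ko against wt the estimate for Haus4 had the same sign (0.59 ± 0.16, adjusted p = 0.119), and it passed with DESeq2 (0.0382). Ndrg2, a stress-responsive gene strongly expressed in heart, was the most abundant member per length, at 243 CPM per kb of exon in wt. It was 613, 695 and 786 CPM in MstTg and 880, 898, 769, 802 and 764 CPM in Mst1Gal3 (0.25 ± 0.06, adjusted p = 0.0123). The Ndrg2 call was lost without Mst1Gal3 replicate 1 (adjusted p = 0.0557) or 2 (0.0560) and when scaled to library totals (0.112).

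Of the 3 members in cell death and autophagy and the 5 in chromatin and transcription, 0 passed in a knockout comparison by edgeR, DESeq2 or limma-voom. At an unadjusted p under 0.05 there were 1 and 1 in Gal3Ko against wt and 1 and 0 in Mst1Gal3 against MstTg. Ripk3, the kinase of necroptosis, had estimates of -0.38 ± 0.15 and -0.39 ± 0.17 with unadjusted p of 0.0203 and 0.0260 (adjusted p = 0.615 and 0.191). Nfatc4, a calcineurin-dependent transcription factor linked to cardiac hypertrophy, and the other 4 NFAT genes did not pass in either (0 of the 4 at an unadjusted p under 0.05).

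The members nearest Lgals3 included several without a call. Fbxo34, an F-box gene that starts 0.0827 Mb above Lgals3, was 9.83 to 11.5 CPM in wt and 9.03 to 12.2 CPM in Gal3Ko. Atg14, which targets the autophagy lipid kinase, was 9.59 to 12.9 and 9.74 to 13.96 CPM. Gmfb and Cnih1 on the other side, and Exoc5 1.70 Mb above, also overlapped between wt and Gal3Ko. Within 2 Mb of Lgals3, 3 of 10 members passed in Gal3Ko against wt and 5 of 10 in Mst1Gal3 against MstTg. Among the 48 members 3 Mb or more above it, 7 and 11 passed. Across the 58 members of the window, Spearman's correlation of absolute change with distance was -0.22 and -0.29. Neighbouring genes share a chromosome stretch and are not independent replicates.

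**Figure D3:**
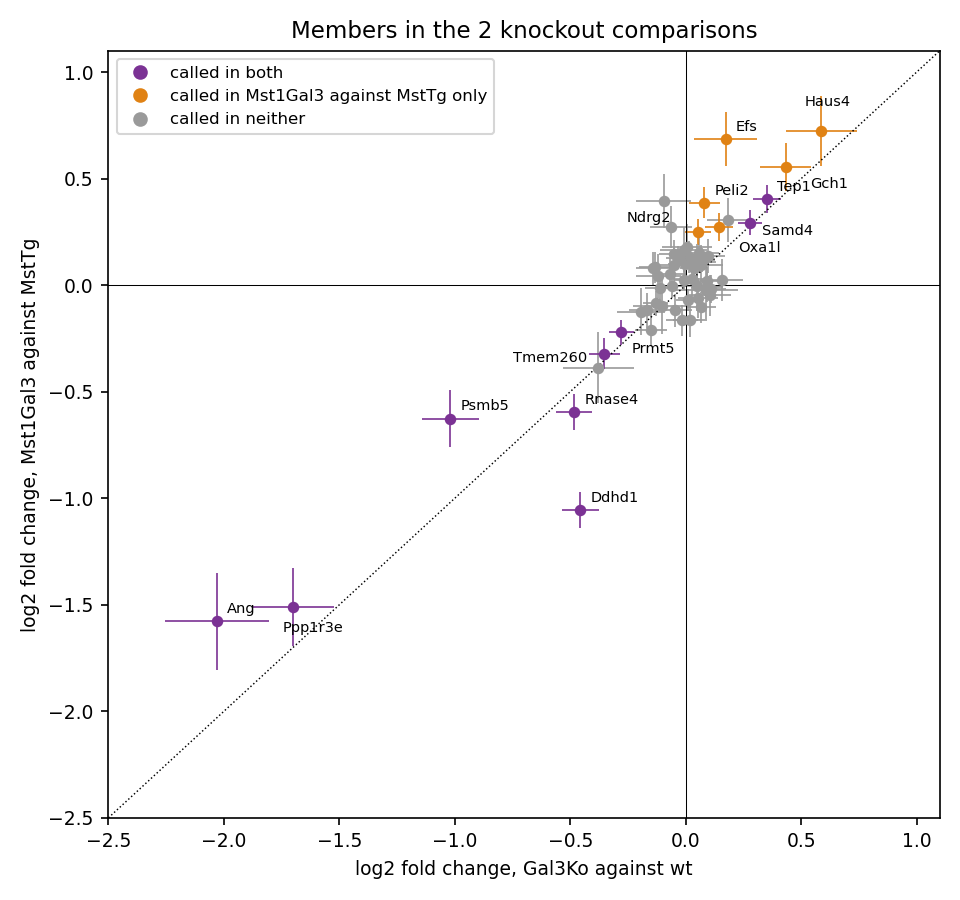
Log2 fold change of each member in Gal3Ko against wt (horizontal) and in Mst1Gal3 against MstTg (vertical), with SE as whiskers and the line of equal change dotted. The members called in both lie in the lower left and upper right parts of the plot, Ddhd1 lies farthest below the line, and Ccnb1ip1 is left out because its controls are at 0 counts.

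The comparisons with no common library ran in parallel for the members. The estimates had the same sign in 38 of 59 members (64.4%), beside 66.1% of the 59 other genes of the window and 50.8% of all genes. Across the 59 members Pearson's correlation was 0.98 and Spearman's 0.66, and without Ccnb1ip1 they were 0.90 and 0.65. Without Ang, Ppp1r3e and Psmb5 as well they were 0.80 and 0.58. In the 59 other genes of the window they were 0.77 and 0.40. Over all genes they were 0.38 and 0.06. The points are genes measured in the same libraries and are no replicates. Groups that do not overlap in CPM in either comparison, in the same direction, were found for 8 members (7 without Ccnb1ip1), where 0.131% of all genes showed this. Taking the mean of both knockout differences as 1 contrast, 18 members passed, 10 higher and 8 lower (7 and 11 when scaled to library totals), against 2.81% of all genes (1.16% higher and 1.65% lower). This added Fitm1 (0.24 ± 0.07, adjusted p = 0.0487) and Mettl3, the RNA methyltransferase (-0.18 ± 0.05, adjusted p = 0.0489), to the 16. Both lie just under the threshold, and whether these calls hold under the alternative settings was not tested gene by gene.

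Other genes of the same window were tested in the same fit. Of the 59 that are not members, 6 passed in Gal3Ko against wt and 12 in Mst1Gal3 against MstTg, and 4 of them passed in both with the same sign. Besides Gm26782 these were Mettl17, 4931414P19Rik and Gm43305. Mettl17, a factor of mitochondrial translation, was 8.43, 9.18 and 10.7 CPM in wt and 11.1, 13.4 and 14.7 CPM in Gal3Ko (0.50 ± 0.09, adjusted p = 0.00176). Its rise in Mst1Gal3 against MstTg was 0.49 ± 0.09 (adjusted p = 0.00130). The estimates of 4931414P19Rik were 0.52 ± 0.11 and 0.45 ± 0.12 (adjusted p = 0.0270 and 0.0213). Both calls were lost when scaled to library totals. Without the libraries with atrial genes the estimates were 0.59 and 0.45 and neither passed (adjusted p = 0.0828 and 0.0513). The first call was also lost when only wt and Gal3Ko were fitted (adjusted p = 0.156), and without wt replicate 1, 3, 4 or 6 or Gal3Ko replicate 4 or 6. The second was lost without MstTg replicate 1 or Mst1Gal3 replicate 1 or 2. Gm43305 had at most 3 counts in any Gal3Ko library and 16 to 75 in wt (adjusted p = 0.000145). It was also lower in Mst1Gal3 than in MstTg (-2.76 ± 0.64, adjusted p = 0.00971), a call that limma-voom did not make (adjusted p = 0.123).

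In 3 of these other window genes, named after their values were seen, the interaction passed. Myh7, the slow myosin heavy chain of the fetal heart programme, rose in Gal3Ko against wt (1.44 ± 0.29, adjusted p = 0.0191, edgeR). Its estimate in Mst1Gal3 against MstTg had the opposite sign and did not pass (-0.66 ± 0.30, adjusted p = 0.248), and the difference between the comparisons was -2.10 ± 0.42 (adjusted p = 0.0193). The call of Myh7 in Gal3Ko was lost when only those groups were fitted (adjusted p = 0.160) and without wt replicate 1, 3 or 6. Irf9, a transcription factor of interferon signalling, fell in Mst1Gal3 against MstTg (-0.80 ± 0.10, adjusted p = 5.39e-06). Its estimate in Gal3Ko against wt was -0.02 ± 0.10, and the interaction of Irf9 was -0.78 ± 0.14 (adjusted p = 0.00844). Abhd4, a lipid hydrolase, passed in neither comparison, with estimates of -0.21 ± 0.06 and 0.14 ± 0.06, and its interaction was 0.35 ± 0.08 (adjusted p = 0.0333). That call was lost when scaled to library totals (adjusted p = 0.0837) and without MstTg replicate 1 or 6, Gal3Ko replicate 1 or 5, or Mst1Gal3 replicate 1, 2 or 4.

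Calls also reached beyond the window on chromosome 14. In Gal3Ko against wt, 16 of 133 genes within 10 Mb of Lgals3 passed (12%), 9 of 141 at 10 to 20 Mb (6.38%), 5 of 155 at 20 to 40 Mb (3.23%) and 0 of 54 farther away by edgeR, DESeq2 or limma-voom, with 5 of these 54 at an unadjusted p under 0.05. Of the 14765 genes elsewhere, 24 passed (0.163%). In Mst1Gal3 against MstTg the shares were 21.1%, 15.6%, 13.5% and 7.41%, and 4.54% elsewhere. The share was lower in each farther bin in both comparisons, and no edge of an interval was sought. In bins of 5 Mb the order was kept in the first comparison, while the second went from 29.3% within 5 Mb to 14.7% at 5 to 10 Mb and 16.9% at 10 to 15 Mb.

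**Figure D4:**
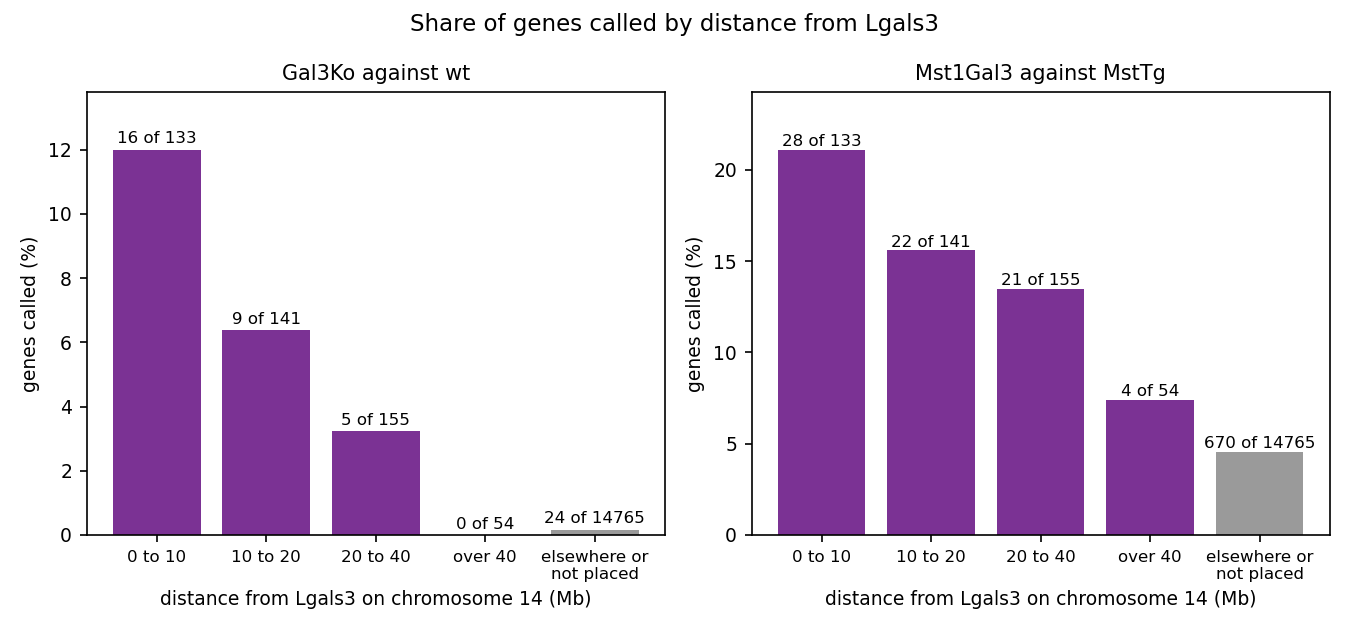
Share of genes called (vertical axis, percent) by distance from Lgals3 on chromosome 14 in Mb, and for genes elsewhere or not placed on the annotation (grey), in Gal3Ko against wt (left) and Mst1Gal3 against MstTg (right). The number called and the number tested stand over each bar, and the bar within 10 Mb is the tallest in both panels, at 12% and 21.1%.

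The members were also followed across Mst-1 overexpression, in MstTg against wt and Mst1Gal3 against Gal3Ko. These use the same libraries as the knockout comparisons, so their values are given side by side only. In MstTg against wt 29 members passed, 14 higher and 15 lower, where 55% of all genes did (28.2% higher and 26.8% lower). In Mst1Gal3 against Gal3Ko 30 passed, 19 higher and 11 lower, against 52.5% (26.9% higher and 25.6% lower). Both shares are near the background. Scaled to library totals the split was 36 higher and 5 lower, and 36 and 4, and the median log2 change of all genes moved from 0.02 to 0.27 and from 0.01 to 0.24. Members that passed in both in the same direction numbered 19, 12 higher and 7 lower, where 43.5% of all genes did so.

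Arhgef40, a guanine nucleotide exchange factor, had the largest rise among members. It was 29.9, 35.5 and 39.0 CPM in wt and 63.6, 85.6 and 102 CPM in MstTg (1.26 ± 0.10, adjusted p = 1.52e-12, edgeR). In Gal3Ko Arhgef40 was 28.2, 38.0 and 42.3 CPM and in Mst1Gal3 89.3, 76.0, 95.2, 104 and 84.2 CPM (1.28 ± 0.09). Both Mst-1 groups lay above their controls without overlap. Nfatc4 rose by 0.84 ± 0.14 and 0.73 ± 0.14, from a median of 4.70 CPM in wt to 8.42 in MstTg. Efs rose by 0.74 ± 0.13 and 1.26 ± 0.13, Samd4 by 0.73 ± 0.06 and 0.74 ± 0.06, and the importin gene Ipo4 by 0.64 ± 0.07 and 0.76 ± 0.07. Ipo4 shares 2583 exon bases on the same strand with Gm49378, an annotated gene that has no row. Ap1g2, a subunit of a clathrin adaptor, rose by 0.55 ± 0.11 and 0.72 ± 0.11. The fibroblast markers given above were also higher in both Mst-1 groups, and their part in these rises was not tested.

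Fitm1, which promotes lipid droplets in striated muscle, had the largest fall. It was 35.9, 40.03 and 50.3 CPM in wt and 13.9, 19.0 and 22.2 CPM in MstTg (-1.14 ± 0.10, adjusted p = 1.46e-11, edgeR). In Gal3Ko Fitm1 was 40.1, 46.9 and 51.4 CPM and in Mst1Gal3 23.8, 20.7, 20.2, 23.9 and 26.04 CPM (-1.02 ± 0.10). Each Mst-1 group lay below its controls. All 6 endothelial markers passed as lower in both Mst-1 comparisons, where 26.8% and 25.6% of all genes did. The summed level of the 5 smooth muscle and pericyte markers was lower too, but the 5 genes did not move together. In MstTg against wt 1 of them passed, lower, with a median log2 change of -0.01. In Mst1Gal3 against Gal3Ko 1 passed lower and 2 higher, with a median of 0.49. The part of these markers in the falls was not tested. Psme1 changed by -0.79 ± 0.05 and -0.74 ± 0.05, and its partner Psme2 by -0.33 ± 0.07 and -0.23 ± 0.07. Oxa1l changed by -0.67 ± 0.06 and -0.55 ± 0.06, and Peli2 by -0.58 ± 0.07 and -0.27 ± 0.07. Emc9, of the membrane insertion complex of the endoplasmic reticulum, fell in MstTg by 0.56 ± 0.09 and did not pass in Mst1Gal3 against Gal3Ko (-0.23 ± 0.10, adjusted p = 0.0502). Slc7a8, an amino acid transporter, and Dcaf11, a receptor of a cullin ligase, fell by 0.36 ± 0.12 and 0.34 ± 0.05 in MstTg. The calls of Slc7a8, Dcaf11 and Psme2 were lost when scaled to library totals (adjusted p = 0.431, 0.189 and 0.283), and that of Slc7a8 without wt replicate 2 (0.0513) or 4 (0.0531).

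**Figure D5:**
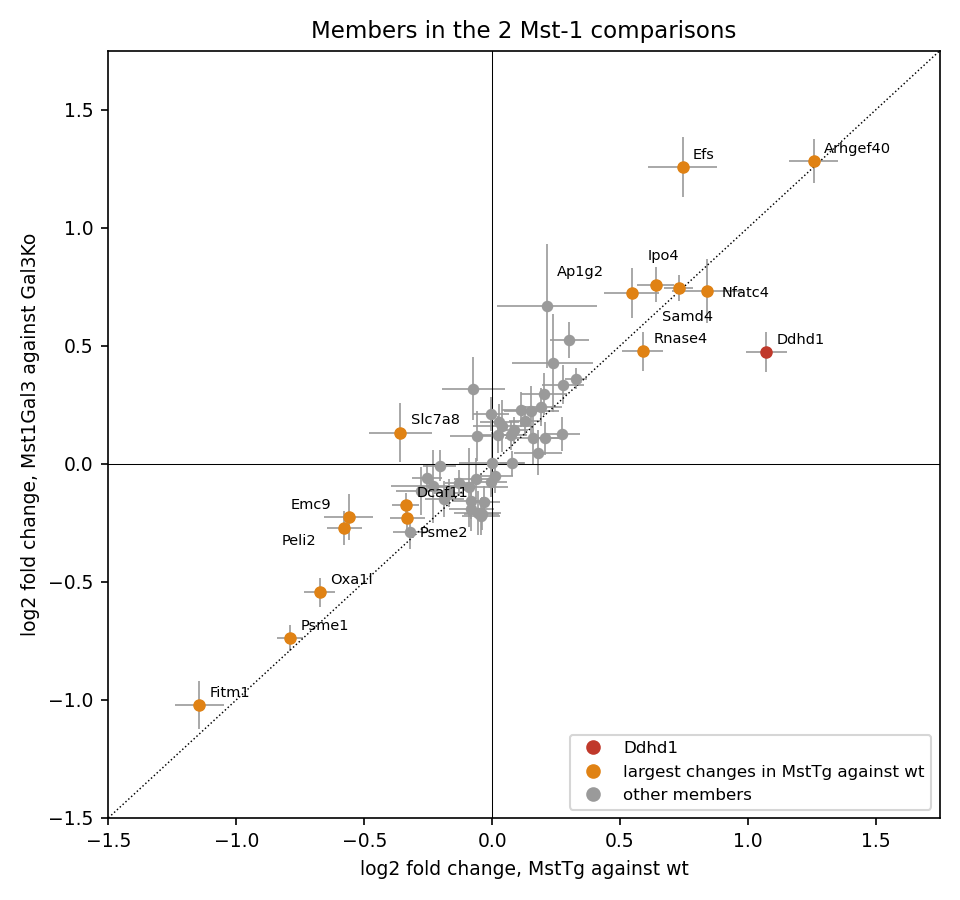
Log2 fold change of each member in MstTg against wt (horizontal) and in Mst1Gal3 against Gal3Ko (vertical), with SE as whiskers and the line of equal change dotted. Most members lie near the line, and Ddhd1 (red) lies below it, at 1.07 and 0.47. Ccnb1ip1 is not drawn.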

How the data were processed

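RNA of the left ventricle was sequenced after depletion of ribosomal RNA, as directional libraries per the labels' protocols. The authors deposited raw counts of reads by gene as whole numbers, not normalized. Per the submitters' processing notes they used bcl2fastq 2.19.1.403, STAR and featureCounts with GRCm38; other settings were not given in the sources used here. The deposited table has no gene with a mean below 10 counts. Counts were tested with edgeR 4.0.16 in R 4.3.3 (TMM, filterByExpr, which removed 0 genes, estimateDisp, robust glmQLFit, glmQLFTest, two-sided). All 26 libraries entered 1 fit with a mean per group, and p-values were adjusted over 15249 genes by Benjamini-Hochberg with a threshold of 0.05. The code was tested on simulated data. CPM use TMM-adjusted totals. Positions came from GENCODE M21 by identifier (15195 found, 54 not) and promoters from RefSeq GRCm38.p6, matched by symbol for 56 of 59 members. Floors from 0 counts cover only counting error, and reads copied by PCR are not independent molecules, while the SEs of the fit include the spread between libraries.

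Named genes were Lgals3, Stk4, members called in a knockout comparison or the interaction, the 5 members on either side nearest Lgals3, the 8 largest changes per direction among members called in MstTg against wt, window genes called in both knockout comparisons, and called genes of the lists. The members and lists were chosen with earlier results of these data known. Alternatives were other scalings, count filters, DESeq2 1.42.0, limma-voom (limma 3.58.1), fewer groups in the fit, a replicate block, and leaving out libraries.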

Additional observations from a re-analysis of the deposited data

Results flagged for a closer look

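For Ddhd1 the change in Mst1Gal3 against MstTg differed from that in Gal3Ko against wt in the test of the difference itself (interaction -0.60 ± 0.12, adjusted p = 0.0121, edgeR). The same test passed in 3 other genes of the window: Irf9 (-0.78 ± 0.14, adjusted p = 0.00844), Myh7 (-2.10 ± 0.42, adjusted p = 0.0193) and Abhd4 (0.35 ± 0.08, adjusted p = 0.0333).

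In 122 sets of 1 gene in 1 group, over 31 genes, a single library stood far from the others in 11 sets; chance gives about 5 in 100. Ddhd1 was 31.2 CPM in MstTg replicate 6 and 34.9 to 37.6 in the others. Peli2 was 20.01 CPM in wt replicate 1 and 17.2 to 17.8 in the others. Rnase4 was 39.1 CPM in wt replicate 2 and 27.0 to 28.8 in the others. Prmt5 was 22.8 CPM in wt replicate 5 (26.2 to 28.0 in the others) and 31.3 CPM in MstTg replicate 5 (26.3 to 27.7 in the others). Psmb5 was 16.3 CPM in Mst1Gal3 replicate 4 and 9.35 to 11.2 in the others, and Psme2 was 27.6 CPM in the same library and 19.0 to 21.4 in the others. MstTg replicate 1 held 46.1 CPM of Gmfb (others 31.7 to 37.5), 43.8 CPM of Exoc5 (others 30.6 to 35.9) and 6.46 CPM of Emc9 (others 8.48 to 9.51). Cnih1 was 28.8 CPM in Gal3Ko replicate 2 and 18.2 to 22.7 in the others.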

How the results depend on the processing

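The number of members called stayed within 1.5 times under every alternative run. It was 8 to 12 in Gal3Ko against wt, 15 to 17 in Mst1Gal3 against MstTg, 1 in the interaction, 27 to 41 in MstTg against wt, 23 to 40 in Mst1Gal3 against Gal3Ko and 15 to 18 for the mean knockout effect. Leaving out single libraries gave 10 to 11, 15 to 18, 1, 25 to 30, 26 to 32 and 15 to 19. Libraries with the same replicate number had correlations of -0.02 to 0.22 between wt and Gal3Ko and -0.34 to 0.00 between MstTg and Mst1Gal3. Between wt and MstTg they were -0.10 to 0.26, and between Gal3Ko and Mst1Gal3 -0.11 to 0.28. No other pairs of libraries were set beside these, so whether replicate numbers pair the libraries was not tested. With the replicate block the counts were 9, 16, 1, 29, 31 and 15, and Prmt5 missed the threshold in Gal3Ko against wt (adjusted p = 0.0757, log2 change -0.27), as did Myh7 (adjusted p = 0.0600) and the interactions of Myh7 (adjusted p = 0.0785) and Abhd4 (0.122). Of 2982 gene values under an alternative, 2903 kept direction and call, 56 lost the call, 4 gained it and 19 changed sign, all 19 in uncalled results, for which the cause was not tested. In Gal3Ko against wt these were Ndrg2 (-0.01), Fbxo34 (-0.0457) and Atg14 (-0.0033) under library totals, and Cnih1 (0.0067) and Fbxo34 (-0.01) under the replicate block. Without single libraries Gmfb ranged from -0.0393 to 0.0034, Irf9 from -0.0705 to 0.0179 and Fbxo34 from -0.0088 to 0.0506 there, and in Mst1Gal3 against MstTg Atg14 from -0.1078 to 0.0146 and Exoc5 from -0.0561 to 0.0503. In members near 1 CPM, such as Ang, Ppp1r3e and Ccnb1ip1, a library held as few as 0 to 5 counts, which limits the precision of single values.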
